A study of Mus musculus with 18 samples.

Results

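The transcripts described here are the precursors of 10 hypothalamic neuropeptides: Pomc, Trh, Agrp, Oxt, Avp, Hcrt, Pmch, Cartpt, Ghrh and Gal. They were chosen by gene symbol, with earlier results of these data known, and all 10 were found among the 27179 genes of the count table. Of these, 9 passed the filter on low counts and were tested, and Ghrh was not. Transcripts were counted by RNA sequencing of 18 male and female C57BL/6J mice, an inbred laboratory strain, which were 4 months old when dosing began and received a daily oral gavage for 14 days. Vehicle was given to 5 mice, 2 of them male. Glyphosate, a broad-use herbicide, was given at 125 mg/kg to 3 males and 2 females. At 250 mg/kg there were 3 males and 1 female, and 500 mg/kg was given to 2 of each sex. All groups shared the strain, the gavage and its length. The study's Methods describe RNA from half-brains, while its Background calls the tissue hippocampal. Its Results name the brains of the first cohort, which were halved with no dissection of the hippocampus described, and the sample labels say brain. The values are read here as those of half-brains. The question was how the level of each gene in the brain changes with the dose of glyphosate.

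A neuropeptide is made as a longer precursor protein that enters the secretory granules of the neuron, where it is cut and trimmed into the active peptide. Each precursor described here is transcribed strongly in a small group of hypothalamic neurons that occupies a small part of the brain. Arcuate neurons that make Pomc and Cartpt restrain feeding, and neighbouring neurons that make Agrp drive it. Paraventricular and supraoptic neurons make oxytocin, vasopressin and thyrotropin-releasing hormone, and neurons of the lateral hypothalamus make the orexins and melanin-concentrating hormone. Several of these precursors are also transcribed in other places, such as Trh and Cartpt in parts of the forebrain and Pomc in the pituitary gland.

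Total counts per mouse ran from 3948096 to 11732885, and a count of 3 in 1 library, used here as the limit of detection, was worth 0.279 to 0.74 CPM (read counts scaled to the size of the library, after TMM normalization). Reads carried no molecular identifiers, so counting intervals cover counting error only. The libraries differed in the levels of markers of brain regions, as the plot of the marker lists shows. The mice labelled G4 (500 mg/kg) and G9 (vehicle) stood apart, since their Spearman correlation across genes with the remaining libraries had a median of 0.945 for G4 and 0.946 for G9, where the rest had 0.962 to 0.976. As a check of hypothalamic tissue, 13 transcription factors of the hypothalamus were looked up, of which 5 passed the filter on low counts. The summed level of the 13 was 5.39 to 12.5 CPM in vehicle mice. It ranged over 5.57 to 18 CPM at 125 mg/kg, over 4.06 to 18.3 at 250 mg/kg, and over 9.17 to 30.7 in mice given 500 mg/kg, and 12 of the 13 were at 0 in at least 2 libraries. In bulk tissue, fewer cells of a type and less RNA per cell cannot be told apart.

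All 9 precursors tested had a positive dose slope, and none passed an adjusted p of 0.05 by the quasi-likelihood F test of edgeR. The median of their slopes was 2.91 on the log2 scale per 500 mg/kg, beside 0.01 over all 15863 genes tested. Across all genes, 0.246% rose in this test. The precursors were chosen with earlier results of these data known, so the values over all genes are a description and no test of the set. Of the 9, Pomc, Oxt, Avp, Hcrt and Pmch passed the filter on low counts only through dosed mice. No vehicle mouse exceeded 1.11, 0.132, 0.924, 0.661 and 0.571 CPM for them, in that order. A positive slope of these genes was thus favoured by the filter, which also bears on the median and on the counts below. At an unadjusted p under 0.05, 6 of the 9 had a positive slope (Trh, Pomc, Pmch, Oxt, Hcrt and Avp), against 7.91% of all genes. That count rested on G79: it was 2 without this mouse. The count was 5 or 6 with any other single mouse left out, 6 with dose as rank and 6 in females alone, who include G79. It was 0 in males alone, 0 without the 500 mg/kg mice (where 4 precursors could be tested) and 0 with the mouse tag number as a block. The fit with the tag number called none of all 15863 genes. In the only tags that span 2 dose groups, the vehicle mice were all female and the dosed mice all male. That fit can therefore hardly separate dose from sex and is no check of the slopes. By the likelihood ratio test of DESeq2, which gave no adjusted p for Pomc, Agrp, Oxt and Gal, 1 precursor, Trh, rose (slope 2.97, adjusted p = 0.0182), where DESeq2 called 1.53% of all genes, and by limma-voom, which called 0.315%, none did. The levels were low and uneven: the coefficient of variation over the 18 mice was 54.6% to 239% for the 9 precursors, beside a median of 23.2% over all genes tested.

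**Figure D1:**
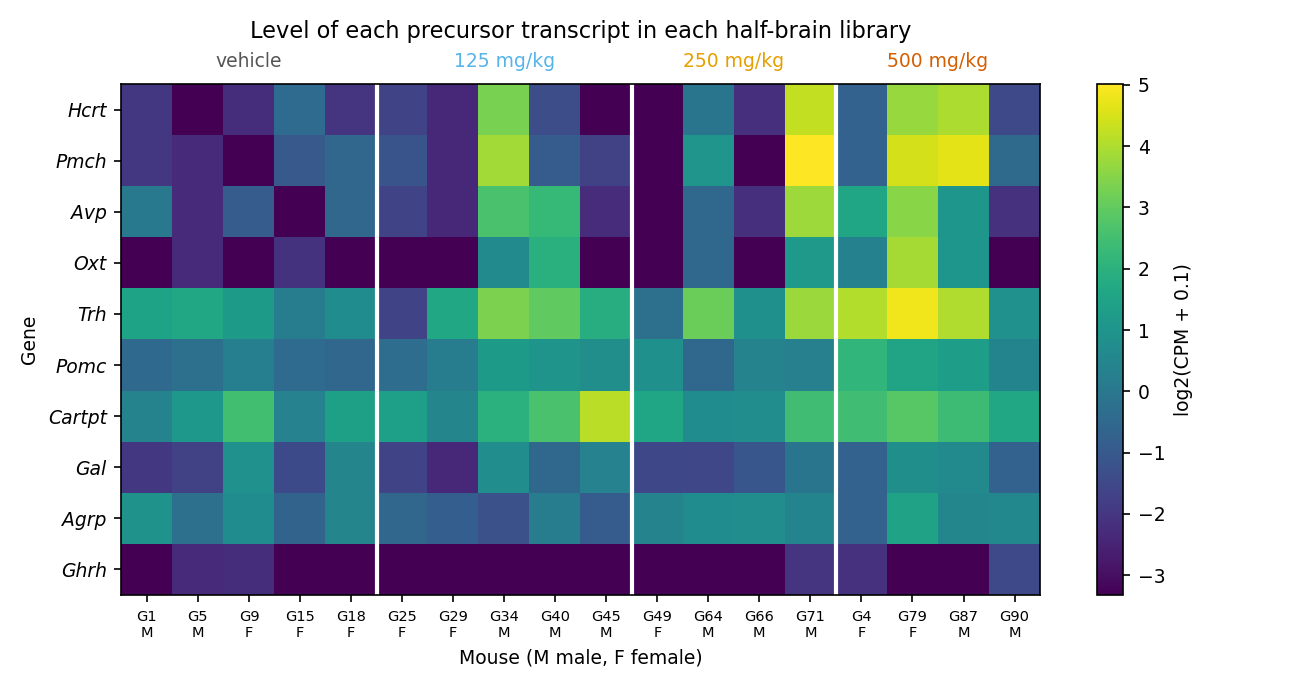
Level of each precursor transcript, as log2(CPM + 0.1), with 1 row per gene and 1 column per mouse, grouped by dose. Mice G34, G71, G79 and G87 hold the high values of Hcrt (10.1 to 19.1 CPM) and Pmch (14.5 to 32.2 CPM), while Ghrh is at or near 0 in every library.

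Hcrt encodes the precursor of the orexins (hypocretins), peptides that sustain wakefulness. It lies at chr11:100761693-100762931 on the minus strand of GRCm38. Pmch, at chr10:88091072-88092374 on the plus strand, encodes the precursor of melanin-concentrating hormone, a peptide linked to feeding and sleep. The neurons that make them lie side by side in the lateral hypothalamus but are separate cells. The bases just upstream of both transcription starts are shown because these transcripts, from different chromosomes, had nearly the same pattern over the mice. Each sequence is 250 bases of GRCm38.p6 from RefSeq, read 5′ to 3′ on the strand of the gene and ending at the base before the start, chr11:100762932-100763181 for Hcrt (minus strand) and chr10:88090822-88091071 for Pmch (plus strand). Capitals mark TATAA, the core of the TATA box, on either strand.
Hcrt: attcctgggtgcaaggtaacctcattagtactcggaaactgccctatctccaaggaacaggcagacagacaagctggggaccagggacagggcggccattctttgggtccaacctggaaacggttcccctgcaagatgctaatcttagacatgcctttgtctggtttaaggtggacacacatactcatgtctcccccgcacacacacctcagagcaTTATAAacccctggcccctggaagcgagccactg
Pmch: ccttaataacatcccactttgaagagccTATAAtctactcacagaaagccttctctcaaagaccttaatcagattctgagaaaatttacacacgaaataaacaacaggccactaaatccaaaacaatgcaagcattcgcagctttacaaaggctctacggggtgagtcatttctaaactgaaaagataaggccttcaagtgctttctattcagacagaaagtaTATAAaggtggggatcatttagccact
Both windows held this motif close to the start, at 33 bases before it in Hcrt (the overlapping match on the other strand began at 34) and at 27 bases in Pmch, which held another at 222. It occurred on either strand in the same window of 22.8% of the 32851 promoters in the table.

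Hcrt was high in 4 libraries and at or near 0 in the other 14. In vehicle mice it was 0.154, 0, 0.111, 0.661 and 0.143 CPM (G1, G5, G9, G15 and G18). At 125 mg/kg it was 0.23, 0.0929, 10.1, 0.292 and 0 CPM (G25, G29, G34, G40 and G45). G34 was high, and the rest of this group lay within the vehicle range. At 250 mg/kg it was 0, 0.844, 0.123 and 19.1 CPM (G49, G64, G66 and G71), and at 500 mg/kg it was 0.514, 13.1, 15.9 and 0.255 CPM (G4, G79, G87 and G90). The high mice were thus 1 in each of the 125 and 250 mg/kg groups and 2 at 500 mg/kg, and the 500 mg/kg group overlapped the vehicle group. The slope was 4.33 (SE 1.45, adjusted p = 0.208).

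Pmch was high in the same 4 mice. It was 0.154, 0.105, 0, 0.397 and 0.571 CPM in the vehicle mice, in the same order. It was 0.345, 0.0929, 14.5, 0.439 and 0.216 CPM at 125 mg/kg, again with G34 alone above the rest. It was 0, 1.93, 0 and 32.2 CPM at 250 mg/kg, where G71 was high, and 0.514, 22.1, 25.2 and 0.637 CPM at 500 mg/kg, where G79 and G87 were. Of the others at 500 mg/kg, G4 lay within the vehicle range and G90 just above it. The slope was 4.88 (SE 1.5, adjusted p = 0.172). The Pmch gene overlaps Parpbp on the other strand by 944 bases, and whether the counting used strand is not given in the sources used here.

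The 4 highest mice held 94.5% of the 18-mouse sum of Hcrt and 94.6% of that of Pmch, beside a median of 29.2% over all genes tested. Only 14 and 13 of the 15863 genes had a larger coefficient of variation than Hcrt (185%) and Pmch (188%). The read counts of Hcrt and Pmch were 63 and 90 in G34, 136 and 229 in G71, 78 and 132 in G79, and 121 and 192 in G87. Their ratio was therefore 1.43 to 1.69 Pmch reads per Hcrt read in these libraries, while each total changed between them. Of all genes tested, 10 had these same mice as their 4 highest, and in 3 of the 10 the lowest of the 4 was at least 2 times the next mouse: Hcrt, Pmch and Fezf1, a transcription factor of the developing and adult hypothalamus. A step of that size below the fourth highest mouse was seen in 12 genes of any pattern. The 4 mice were taken from Hcrt itself, so Hcrt is among the 10 by definition. Genes below the filter on low counts were left out of these counts. One of them, the hypothalamic factor Bsx, also had these 4 mice highest (0.394 CPM or more, against 0.186 or less). It had only 16 reads over all libraries, and these values lie at or just above the 3-count limit. The other hypothalamic factors below the filter had other sets of 4 highest mice. Fezf1 was 1.77 CPM in G34, 1.69 in G71, 4.69 in G79 and 2.76 in G87, and at most 0.362 in the others. How far the amount of hypothalamic tissue in each library accounts for these values was not tested.

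**Figure D2:**
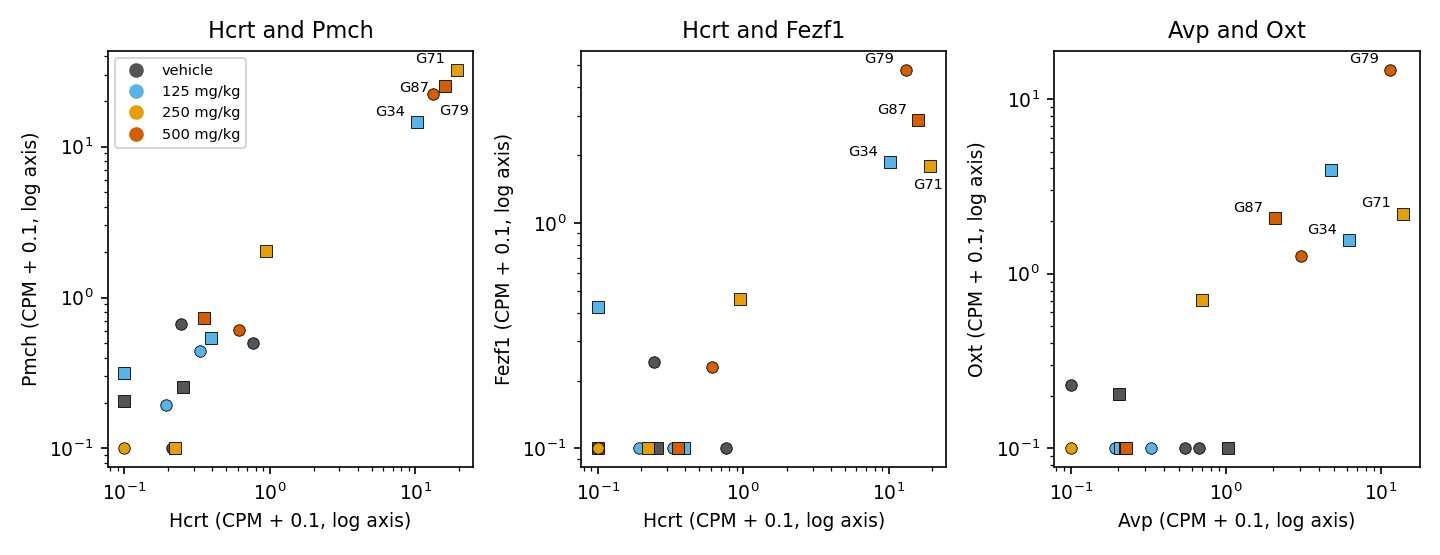
Levels of Pmch against Hcrt, Fezf1 against Hcrt, and Oxt against Avp in the 18 mice, on log axes in CPM + 0.1 (colour for dose, squares males, circles females). In the first and second panels, G34, G71, G79 and G87 sit apart from the other 14 mice, with Hcrt at 10.1 CPM or more against 0.844 or less, and in the third the mice with the highest Avp also have Oxt above 1 CPM.

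Oxt encodes the precursor of oxytocin, a hormone of birth, lactation and social behaviour, and Avp encodes that of vasopressin, the antidiuretic hormone. They are neighbours that arose by duplication and face each other on chromosome 2: Oxt at chr2:130574519-130577054 (plus strand) and Avp at chr2:130580620-130582588 (minus strand), with 3565 bases between the genes in GENCODE. The RefSeq interval of Oxt opens upstream of the start used in its promoter table, which is 4 bases from the GENCODE start at 130576173. The 250 bases before the start in that table are shown for both genes because these genes share a locus and were high in many of the same mice. They are again from RefSeq and on the strand of the gene, chr2:130575919-130576168 for Oxt and chr2:130582589-130582838 for Avp (GRCm38.p6). Capitals mark AGGTCA, the half-site bound by many nuclear receptors, on either strand.
Oxt: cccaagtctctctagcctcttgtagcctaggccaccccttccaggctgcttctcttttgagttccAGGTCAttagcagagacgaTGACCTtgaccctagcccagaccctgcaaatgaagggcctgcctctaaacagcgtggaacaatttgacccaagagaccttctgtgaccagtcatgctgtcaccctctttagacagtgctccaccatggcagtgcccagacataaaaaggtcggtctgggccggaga
Avp: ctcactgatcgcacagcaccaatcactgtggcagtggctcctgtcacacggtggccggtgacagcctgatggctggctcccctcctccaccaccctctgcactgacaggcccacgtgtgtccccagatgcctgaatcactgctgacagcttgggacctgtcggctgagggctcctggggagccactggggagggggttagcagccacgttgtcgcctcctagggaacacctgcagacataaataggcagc
The Oxt window held it at 185 bases before the start and, on the other strand, at 166 bases. The Avp window did not hold these letters, nor TATAA, and neither window held CGTCA, the core of the cAMP response element. In the table, 14% of promoters held AGGTCA and 17.8% held CGTCA on either strand.

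Oxt was detected with at most 1 read in any vehicle mouse. Its vehicle values were 0, 0.105, 0, 0.132 and 0 CPM (2 reads in all 5 libraries). At 125 mg/kg they were 0, 0, 1.45, 3.8 and 0 CPM, at 250 mg/kg 0, 0.603, 0 and 2.11 CPM, and at 500 mg/kg 1.16, 14.6, 1.97 and 0 CPM. Thus 7 of the 13 dosed mice lay above every vehicle mouse, and the other 6 were at 0. Pooled over libraries, there were 111 reads at 500 mg/kg and 2 in vehicle mice, a ratio of 75 after scaling to library size (95% exact interval 20.3 to 627, for counting error only), and 87 of the 111 reads came from G79. The slope was 4.54 (SE 1.43, adjusted p = 0.184), and it was 2.09 without G79 (adjusted p = 0.558).

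Avp had low values in every group and high values in most of the dosed mice with Oxt, though not in G64 (0.603 CPM). It was 0.924, 0.105, 0.443, 0 and 0.571 CPM in vehicle mice and 0.23, 0.0929, 6.11, 4.68 and 0.108 CPM at 125 mg/kg. It was 0, 0.603, 0.123 and 13.8 CPM at 250 mg/kg, and 2.96, 11.4, 1.97 and 0.127 CPM at 500 mg/kg. Of the 13 dosed mice, 6 were above every vehicle mouse (G34, G40, G71, G4, G79 and G87), and each dose group also held mice within the vehicle range or below it. The slope was 3.31 (SE 1.38, adjusted p = 0.311). The ratio of Oxt to Avp reads was not steady between the libraries in which both were high: it was 0.237 in G34, 0.812 in G40, 0.153 in G71 and 1.28 in G79.

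Trh encodes the precursor of thyrotropin-releasing hormone, which in the hypothalamus governs the thyroid axis. It lies at chr6:92242061-92244650 (minus strand). It was present in all vehicle mice, at 2.77, 3.05, 2.22, 1.06 and 1.57 CPM (mean 2.13 ± 0.827, SD, n = 5). It was 0.23, 3.07, 10.3, 7.75 and 3.56 CPM at 125 mg/kg (4.98 ± 4, n = 5) and 0.74, 8.8, 1.72 and 13.6 CPM at 250 mg/kg (6.23 ± 6.11, n = 4). It was 16.6, 28.2, 16.3 and 1.78 CPM at 500 mg/kg (15.7 ± 10.8, n = 4). At the highest dose 3 of 4 mice exceeded every vehicle mouse, and the fourth, G90, lay inside the vehicle range. Trh had the smallest p of the set, with a slope of 2.91 (SE 0.70, unadjusted p = 0.00052, adjusted p = 0.0825 by edgeR), and its difference between 500 mg/kg and vehicle was 3.02 (SE 0.80, adjusted p = 0.172). The call turned on 1 library and on the test: without G90 the edgeR slope was 3.40 (adjusted p = 0.0303), and DESeq2 called it with all 18 mice. In these 18 mice Trh was the precursor whose level followed Oxt most closely (Spearman rho 0.79 across mice, which share library and depth).

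Pomc, at chr12:3954945-3960643 (plus strand), encodes pro-opiomelanocortin, the source of the appetite-restraining α-MSH and of β-endorphin. It was the only one of the 9 whose vehicle and 500 mg/kg mice did not overlap. Its level was 0.616, 0.736, 1.11, 0.661 and 0.571 CPM in vehicle mice (0.739 ± 0.216, SD, n = 5) and 4.37, 2.85, 2.37 and 1.27 CPM at 500 mg/kg (2.71 ± 1.28, n = 4). Every mouse at 500 mg/kg was above every vehicle mouse, an order that 2.32% of all genes tested showed. The middle groups were not ordered by dose: 0.691, 1.02, 2.25, 1.9 and 1.62 CPM at 125 mg/kg (1.5 ± 0.636, n = 5) and 1.73, 0.603, 1.23 and 1.13 CPM at 250 mg/kg (1.17 ± 0.461, n = 4). In all, 10 of the 13 dosed mice were above every vehicle mouse.

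The dose slope of Pomc was 1.59 (SE 0.41, adjusted p = 0.102). The difference between 500 mg/kg and vehicle was 1.84 (SE 0.42, adjusted p = 0.12 by edgeR), where 0.0189% of all genes rose, and DESeq2, which called 1.05% of all genes, put it past the threshold (1.85, adjusted p = 0.0196). The highest value was that of G4, a library that also held transcripts of the pituitary, where Pomc is abundant. Growth hormone (Gh) was 12.2 CPM in G4 and at most 2.95 elsewhere, and prolactin (Prl) was 18.6 CPM in G4 and at most 1.51 elsewhere. The 10 pituitary markers summed to 38.8 CPM in G4, 1.61 to 10.9 CPM in all other mice, and 2 of them passed the filter on low counts, Pax7 (slope 1.23) and Tshb (slope 0.25), with no call. Fshb was at 0 in every library, and Tbx19, a factor of the pituitary cells that make Pomc, never exceeded 0.335 CPM. Without G4 the slope of Pomc was 1.22 (adjusted p = 0.495), and the 3 remaining mice at 500 mg/kg stayed above every vehicle mouse. The part of pituitary tissue in the value of G4 was not tested.

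Agrp, at chr8:105566695-105579845 (minus strand), encodes agouti-related peptide, which opposes α-MSH at its receptors. Of the 9 tested, it was the only one with its lowest group mean at 125 mg/kg. It was 1.85, 0.736, 1.55, 0.529 and 1.28 CPM in vehicle mice (1.19 ± 0.551, SD, n = 5) and 0.576, 0.464, 0.321, 1.02 and 0.432 CPM at 125 mg/kg (0.563 ± 0.273, n = 5). These groups overlapped, and the difference was -1.07 (SE 0.46, unadjusted p = 0.0329, adjusted p = 0.41). At 250 mg/kg it was 1.23, 1.57, 1.6 and 1.27 CPM, and at 500 mg/kg 0.514, 2.68, 1.31 and 1.4 CPM, where G79 lay above the vehicle range and G4 just below it. The slope was 0.59 (SE 0.50, adjusted p = 0.649), and 0.03 without G79. The Agrp model in GENCODE overlaps Ripor1 and Ctcf on the other strand. On its own strand it overlaps a pseudogene (880 bases) and the long noncoding RNA Gm5914 (13058 bases). Whether the counting used strand is not given in the sources used here.

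Cartpt, at chr13:99898483-99910179 (minus strand), encodes the CART peptides, made with α-MSH in arcuate neurons and in many other neurons. Its highest value was in G45, at 17.6 CPM, a 125 mg/kg mouse in which 6 thalamic markers summed to 918 CPM, the most in any library (38.7 to 76.7 CPM in vehicle mice). The other 125 mg/kg mice were at 2.53, 1.3, 3.86 and 5.99 CPM, and vehicle mice at 1.23, 2.1, 5.54, 1.19 and 2.57 CPM. It was 2.96, 1.57, 1.6 and 5.34 CPM at 250 mg/kg and 5.4, 7.04, 5.12 and 3.06 CPM at 500 mg/kg. The groups overlapped throughout, and the slope was 0.54 (SE 0.65, adjusted p = 0.767). The part of thalamic tissue in the value of G45 was not tested.

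Gal encodes galanin, an inhibitory peptide of several hypothalamic and brainstem groups, at chr19:3409915-3414544 (minus strand). It ran from 0.0929 to 1.77 CPM, with the highest mouse, G9, in the vehicle group, and had a slope of 0.42 (SE 0.72, adjusted p = 0.845). Group means were 0.737 ± 0.744 CPM in vehicle mice (SD, n = 5) and 0.740 ± 0.643 in the 125 mg/kg group (n = 5). Mice given 250 mg/kg had 0.425 ± 0.285 CPM (n = 4) and those given 500 mg/kg 1.04 ± 0.613 (n = 4). No mouse at any dose was above every vehicle mouse. Ghrh, at chr2:157329496-157348725 (minus strand), encodes growth hormone-releasing hormone of arcuate neurons. It had 6 reads over all 18 libraries, was at 0 in 13 of them and never exceeded 0.255 CPM, which is below the 3-count level of every library. A change in it was not detectable at this depth.

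**Figure D3:**
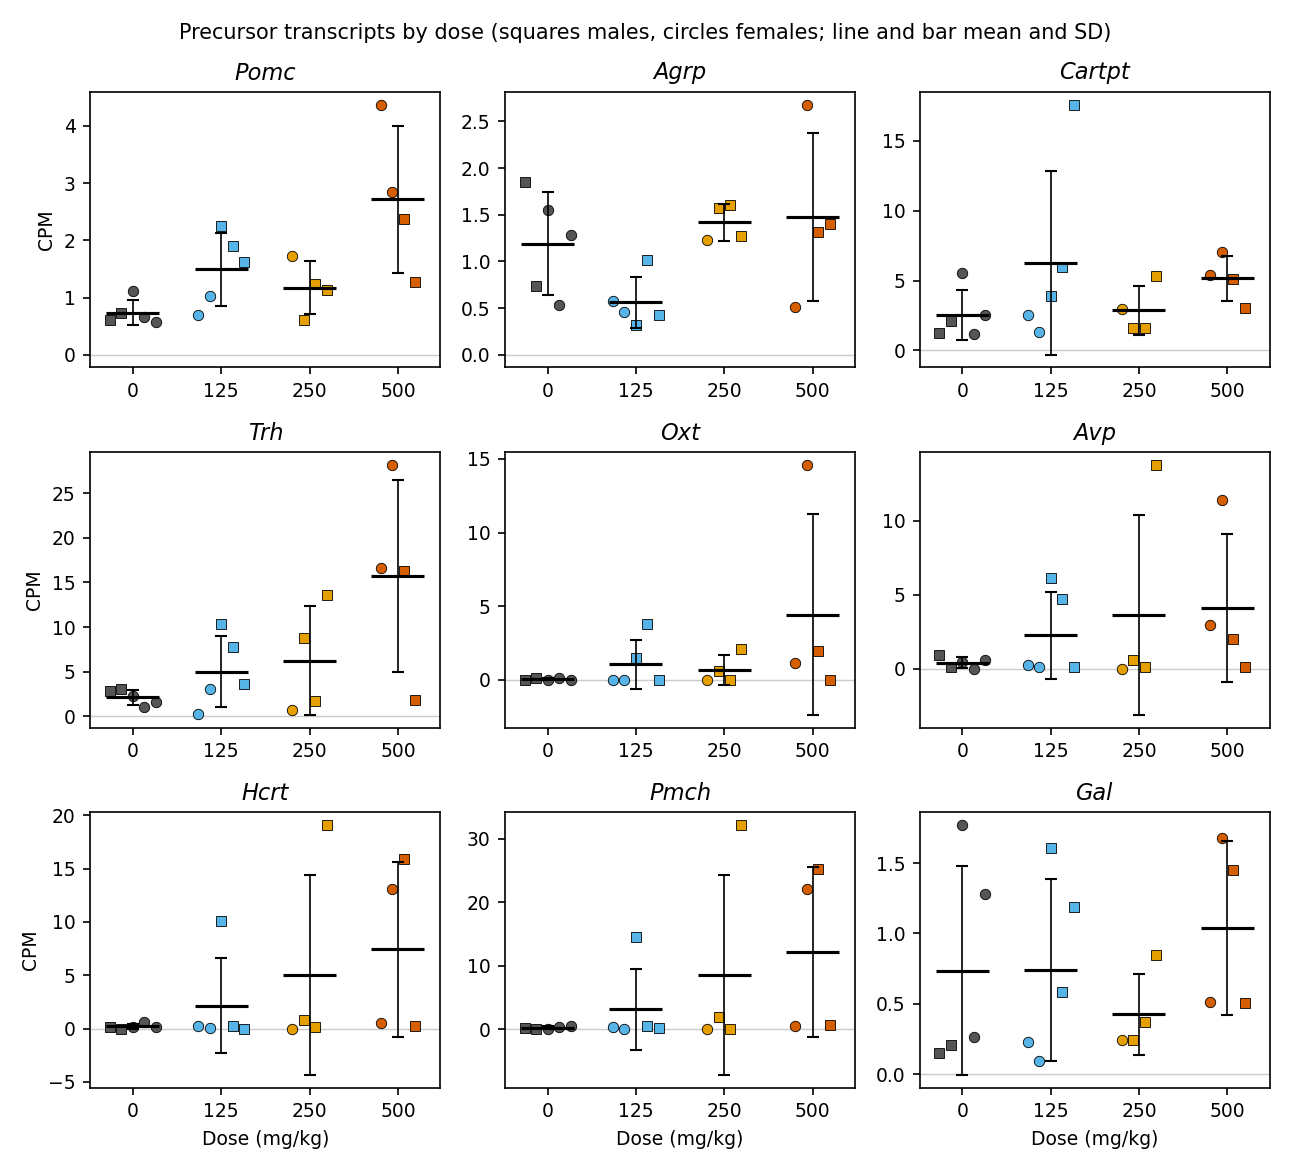
Level (CPM) of the 9 tested precursors by dose, with 1 point per mouse (squares males, circles females), the mean as a line and the SD as a bar. Pomc at 500 mg/kg (1.27 to 4.37 CPM) lies wholly above the vehicle mice (0.571 to 1.11 CPM), whereas Hcrt, Pmch and Avp at each dose include mice at vehicle level.

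The doses were also compared with vehicle one at a time. None of the 9 was called at 125 mg/kg or at 250 mg/kg against vehicle by edgeR, where the share of all genes called was 0% in both comparisons, and 2 and 1 of them had an unadjusted p under 0.05. None was called at 500 mg/kg by edgeR, with 6 at an unadjusted p under 0.05, by limma-voom none was and by DESeq2, which gave no adjusted p for Hcrt, 1 was (Pomc). The count at an unadjusted p under 0.05 was 3 without G79 and 1 by limma-voom. The differences from vehicle at 500 mg/kg were 6.11 for Oxt (SE 1.79), 5.71 for Pmch (SE 1.87), 5.05 for Hcrt (SE 1.80) and 3.57 for Avp (SE 1.52), with adjusted p between 0.211 and 0.382. These log2 values rest on vehicle libraries with few reads, 2 for Oxt, 8 for Hcrt, 9 for Pmch and 15 for Avp, and change with the count that the fit adds to low values. Asked for any difference among the 4 groups, edgeR called none of the 9 (0.0441% of all genes), with 5 at an unadjusted p under 0.05 (3 without G79, 1 by limma-voom). DESeq2 called Pomc (adjusted p = 0.0367) and 3.4% of all genes. A departure from a straight line was called for none by edgeR (0.0063% of all genes), with 1 at an unadjusted p under 0.05, Agrp (0.0328, adjusted p = 0.379).

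**Figure D4:**
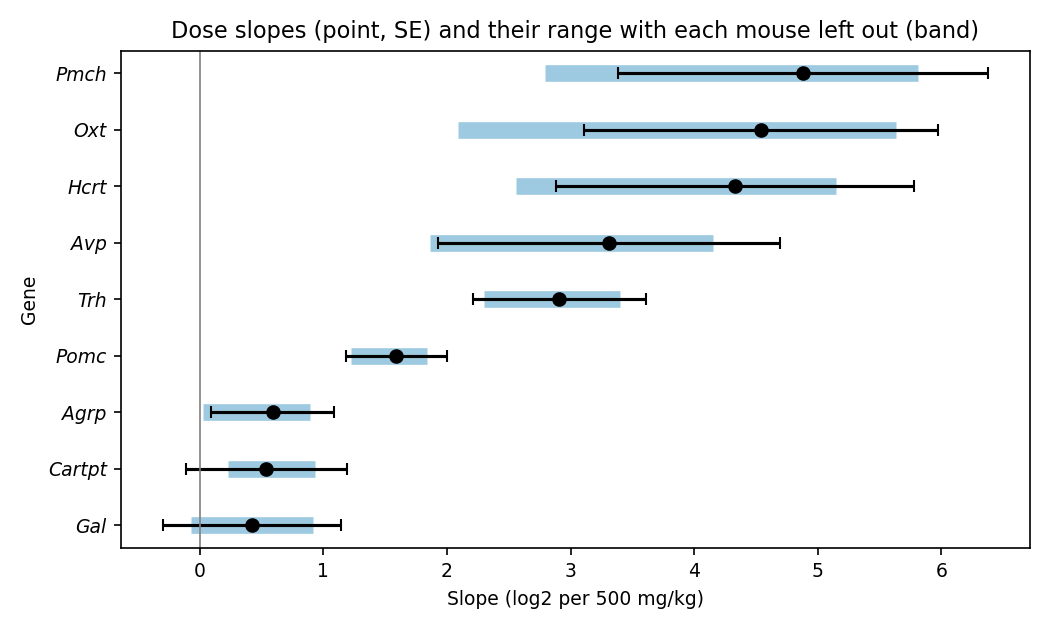
Dose slope of each tested precursor (log2 per 500 mg/kg, point with SE) and the range of the slope when each of the 18 mice was left out in turn (band). The bands of Pmch, Oxt, Hcrt and Avp reach down to between 1.86 and 2.79, each without mouse G79, and that of Gal crosses 0.

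Several precursors are known to differ between males and females, and the sexes were compared with dose in the model. None of the 9 differed by edgeR, where 0.0441% of all genes did, and 1 had an unadjusted p under 0.05. That count was 4 without G79, 3 without G90 and 2 without G66. It was 0 without G1, G9, G15, G18, G25, G29, G34, G49, G71 or G4. It was also 0 with the size factors of DESeq2, by DESeq2 and by limma-voom. At an adjusted p of 0.05 limma-voom called none, nor did DESeq2, which gave no adjusted p for Pomc, Agrp, Oxt and Gal. The precursor under 0.05 in the edgeR fit of all mice was Pmch, lower in females by 2.42 (SE 1.15, unadjusted p = 0.0482, adjusted p = 0.485). Of the 4 mice with high Hcrt and Pmch, 3 were male and 1 was female, and males ran from 0 to 32.2 CPM for Pmch and females from 0 to 22.1 CPM. The dose slope did not differ between the sexes for any precursor at an adjusted p of 0.05 by edgeR (0% of all genes), with 1 at an unadjusted p under 0.05. For Oxt the slope was steeper in females by 8.54 (SE 2.97, unadjusted p = 0.00995, adjusted p = 1), and 14.6 CPM of G79, a female, was the largest value at the highest dose.

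The order of the median levels, per kilobase of the exons that GENCODE M21 gives for a gene, changed between vehicle and the highest dose. Over all 18 mice the median CPM per kilobase was 2.36 for Cartpt, 2.21 for Trh, 1.23 for Agrp, 0.895 for Pomc, 0.879 for Avp and 0.65 for Gal. It was 0.558 for Pmch, 0.324 for Hcrt, 0.0978 for Oxt and 0 for Ghrh. The ranges over mice overlapped for every pair of neighbours in this order. Both genes of a pair were measured in the same libraries, so this overlap does not show whether they differ, which was not tested. In vehicle mice alone the median was 1.64 CPM per kilobase for Cartpt and 1.6 for Trh, and only 0.206 for Pmch and 0.191 for Hcrt. At 500 mg/kg Pmch was first, with 15.2 CPM per kilobase but a range of 0.686 to 33.6. Trh followed with 11.9 (1.29 to 20.4) and Hcrt with 9.09 (0.34 to 21.2). These medians of Pmch and Hcrt lie between the high values of G79 and G87 and the low values of G4 and G90, so no mouse was near them.

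Several precursors ranked the mice alike, with all doses pooled. Across the 18 mice, Spearman's rho was 0.88 between Hcrt and Pmch, 0.79 between Trh and Oxt, and 0.73 between Trh and Avp. The levels of Hcrt and Pmch also ranked with those of Oxt (0.76 and 0.68) and Avp (0.75 and 0.73), and Oxt with Avp (0.66). Cartpt ranked with Gal (0.77) and Pomc (0.71). Each mouse gives all these levels from 1 library, and dose was not taken out. Agrp went with none of the others, with rho between -0.16 and 0.24. Mouse G79 was among the 4 highest for all 9 precursors, G87 for 6, and G34 and G71 for 5 each. At the other end, G5, G15, G18, G25, G29, G49 and G90 were among the 4 highest for none. G90 received the same dose as G79.

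Outside the set, the genes whose levels ranked the mice most like each precursor were these. Chrm5, a muscarinic acetylcholine receptor, came first for both Hcrt and Pmch (rho 0.8 for each). Slc22a13b, from a family of organic ion transporters, came first for Avp (0.86), Foxm1, a cell-cycle transcription factor, for Oxt (0.77), and Ncf1, a subunit of the phagocyte oxidase, for Trh (0.79). For Pomc it was Tmem185b (0.91), for Cartpt Yars2, the mitochondrial tyrosyl-tRNA synthetase (0.86), for Gal Perm1 (0.84) and for Agrp Tas1r3, a taste receptor subunit (0.95). These are the highest of many values over 18 mice and are given as a description.

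Among the receptors through which these peptides act, 12 of 17 were tested and 1 rose with dose by edgeR. This was Mc4r, the melanocortin receptor of the brain on which α-MSH and agouti-related peptide meet, with a slope of 1.34 (SE 0.28, adjusted p = 0.0492). It was 3.7, 2.1, 2.88, 2.78 and 2.43 CPM in vehicle mice and 9.38, 6.54, 6.83 and 7.01 CPM at 500 mg/kg. These groups did not overlap, as for 2.32% of all genes, and the values between were 3.51 to 6.27 CPM at 125 mg/kg and 2.47 to 9.16 CPM at 250 mg/kg. The call was at the edge of the threshold: it was lost in 13 of the 18 fits that left out 1 mouse, those without G1, G5, G15, G18, G25, G29, G34, G40, G66, G71, G4, G87 or G90, with slopes of 1.17 to 1.47 in all 18 and an adjusted p of up to 0.348 (without G4). DESeq2 and limma-voom called it too (adjusted p = 0.00237 and 0.0397). With the mouse tag number as a block its slope was -0.04, in a fit that called no gene and can hardly separate dose from sex. The orexin receptors had slopes of 1.81 for Hcrtr2 (SE 0.40, adjusted p = 0.058) and 1.30 for Hcrtr1 (SE 0.44, adjusted p = 0.209), while Mchr1, the receptor of melanin-concentrating hormone, had -0.42 (adjusted p = 0.663). The list median was 0.7.

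Of the machinery that turns precursors into peptides, 13 of 13 genes were tested and none was called by edgeR. Scg2, a granin of secretory granules, had the smallest p, with a slope of 0.84 (adjusted p = 0.137), and Pcsk2, a convertase that cuts many of these precursors, had -0.61 (adjusted p = 0.344). The list had 4 positive and 9 negative slopes and a median of -0.08. Among 4 genes of peptide breakdown and receptor accessories none was called, and Mrap2, which assists Mc4r, had 1.45 (adjusted p = 0.186). Of 22 other neuropeptide precursors, 11 were tested and none was called, with 3 positive and 8 negative slopes and a median of -0.44. Of these, 2 had an unadjusted p under 0.05, both negative: Cck, with a slope of -1.40 (adjusted p = 0.32), and Npy, which Agrp neurons also make, with -1.37 (adjusted p = 0.299). Crh, the stress-axis releasing hormone of the paraventricular nucleus, had 0.57 (adjusted p = 0.473).

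Of 7 genes for energy balance sensing 6 were tested, and Irs4, an insulin receptor substrate prominent in the hypothalamus, rose with a slope of 3.22 (SE 0.63, adjusted p = 0.0361). It was 0.77 to 6.14 CPM in vehicle mice and 54.2, 43.6, 32.5 and 9.3 CPM at 500 mg/kg, with 19.4 CPM in G34 and 30.5 in G71, so that 5 of its 6 highest mice were among the 6 highest of both Trh and Avp. Its call was lost without G1, G5, G15, G25, G40, G4 or G87, with an adjusted p of up to 0.265 (without G4) and slopes of 2.86 to 3.6 over the 18 fits. None of 8 genes for thyroid hormone handling was called, and Thra, a thyroid hormone receptor, had a slope of -0.47 (adjusted p = 0.279).

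Markers of the hypothalamus and of other brain regions are given beside the precursors. Of the 5 hypothalamic transcription factors tested none was called, though 2 had an unadjusted p under 0.05: Fezf1 had a slope of 4.26 (adjusted p = 0.16) and Otp, which specifies oxytocin, vasopressin and Trh neurons, had 2.75 (adjusted p = 0.144). Sim1, needed for the same neurons and too low to be tested, was 4.86 CPM in G79, 2.89 in G87, 2.81 in G71, 1.08 in G45, 0.803 in G34 and at most 0.514 elsewhere. Of 10 midbrain dopamine markers 8 were tested and 3 rose (Slc6a3, Ddc and Chrna6), with all 8 slopes positive. Slc6a3 was called in all 18 fits that left out 1 mouse, Ddc in 14 (not without G5, G15, G4 or G87, adjusted p up to 0.348) and Chrna6 in 9 (not without G1, G5, G15, G25, G34, G71, G4, G87 or G90, adjusted p up to 0.22). The mean log2 CPM of the 8 was 3.95 to 5.24 at 500 mg/kg and 1.12 to 3.46 in vehicle mice. All slopes were negative, with no call, for the 8 cortical glutamatergic markers (median -1.38), the 7 striatal markers (median -1.57) and the 8 choroid plexus markers (median -0.75). The 5 thalamic markers tested had negative slopes, without a call. At 500 mg/kg against vehicle, however, all 5 had positive differences (median 0.53), and their highest mean level was in G45, at 125 mg/kg. Of the 9 hindbrain and cerebellar markers 4 had positive and 5 negative slopes, without a call. With the level of the hypothalamic factors as a covariate, the slope was -0.66 for Hcrt, -0.15 for Pmch, 0.21 for Avp, 1.91 for Oxt, 1.38 for Trh and 1.18 for Pomc, and no precursor was called by edgeR (1 at an unadjusted p under 0.05). That level is itself a measure of the same libraries and holds Fezf1.

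**Figure D5:**
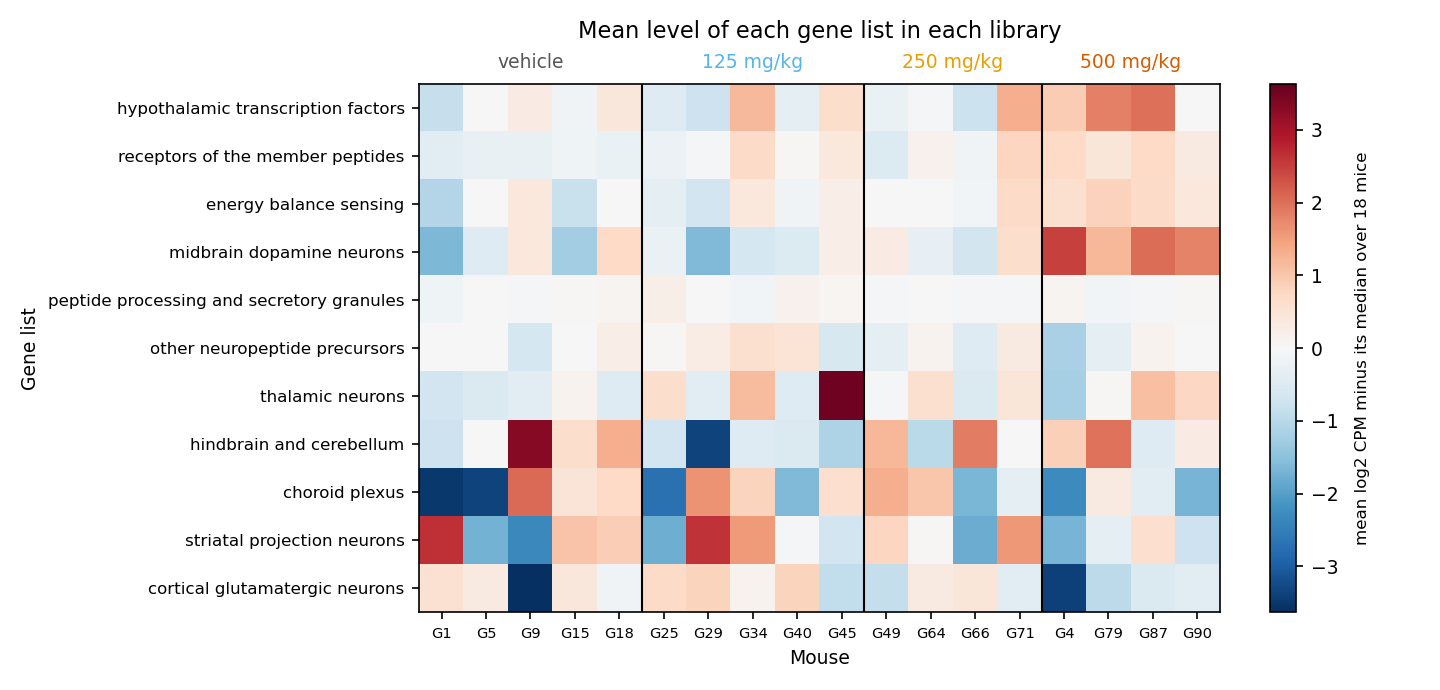
Mean log2 CPM of each marker list in each library, less the median of the list over the 18 mice, with mice grouped by dose. The hypothalamic factors (5 genes) are highest in G87, G79, G71 and G34 (mean log2 CPM of 2.2, 2.01, 1.5 and 1.36 before the median is taken off), the midbrain dopamine markers are raised in all 4 mice at 500 mg/kg, and G4 and G9 have low cortical markers.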

How the data were processed

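RNA from the 18 mice had been made into stranded total RNA libraries after removal of ribosomal RNA and sequenced as 100 bp paired-end reads. The authors aligned them to GRCm38 with STAR 2.7.5b, counted reads per gene with featureCounts and deposited raw counts for 27179 genes by Entrez number, of which 25275 had a symbol in RefSeq of GRCm38.p6. Here, edgeR 4.0.16 in R 4.3.3 (TMM, filterByExpr by dose group, minimum count 10, quasi-likelihood F test) was run on 15863 genes with dose divided by 500 and sex, with Benjamini-Hochberg adjustment of p at 0.05. The biological coefficient of variation was 21.3%. The dose regression was tested on simulated data, whose spread followed the trend over all genes. The precursors varied more than most genes, so that simulation says little about them. Libraries of a group differed by more than sampling noise (chi-square per degree of freedom 7.53 to 62.6 in 32 pairs). The sex stated matched in 18 of 18 mice. DESeq2 1.42.0, limma-voom, other filters, samples and covariates, and leaving out each mouse were alternatives. The rule named the 10 precursors, the genes called in each marker list or else up to 3 with the smallest p, and the 3 genes most like each precursor, of which the text gives some. The precursors and lists were chosen with earlier results of these data known. Mchr1, Sim1, Bsx, Gh, Prl, Fshb and Tbx19 fall outside the rule and were named after their values were seen. Leaving out G4 and G9 together was chosen after seeing the data.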

Additional observations from a re-analysis of the deposited data

Results flagged for a closer look

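In groups of 4 or 5 mice, 8 of the 36 sets of values of a precursor in a dose group held a mouse far from the others. The limit used gives about 1 in 20 for independent, normally distributed values. These sets hold low counts and share libraries, so that rate is no background for them. The rate over all genes was not computed. For Hcrt these were G34 at 125 mg/kg (10.1 CPM, the next mouse 0.292), G71 at 250 mg/kg (19.1 CPM, the next 0.844) and the vehicle mouse G15 (0.661 CPM, the next 0.154), the last from 5 reads. For Pmch the same mice stood out at 125 mg/kg (G34, 14.5 CPM, the next 0.439) and 250 mg/kg (G71, 32.2 CPM, the next 1.93). For Avp it was G71 (13.8 CPM, the next 0.603), for Oxt G79 at 500 mg/kg (14.6 CPM, the next 1.97) and for Cartpt G45 at 125 mg/kg (17.6 CPM, the next 5.99). At 500 mg/kg Hcrt and Pmch had no such mouse, since the high values were shared by G79 and G87.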

How the results depend on the processing

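The edgeR dose regression called 46 genes and none of the 9 precursors. Over all genes it called 29 with no filter on low counts, 242 by DESeq2, 27 with dose as rank, 7 without the vehicle mice, 2 with the hypothalamic factor level as a covariate, 2 without G4 and G9 together, and 0 with the mouse tag number as a block, without the 500 mg/kg mice, in males alone and in females alone. With each mouse left out it called 2 (without G4) to 127 (without G79). The count of precursors called was 1 by DESeq2 in the dose regression (Trh), at 500 mg/kg and among the 4 groups (Pomc for both), and 0 to 1 with each mouse left out, the call being Trh without G90. Slopes turned negative for Hcrt (-0.66), Pmch (-0.15), Cartpt (-0.5) and Gal (-1.22) with the factor level as a covariate. With the tag number as a block they did so for Trh (-0.38), Oxt (-3.29), Avp (-2.13), Hcrt (-1.46), Cartpt (-0.38), Gal (-0.37) and Mc4r (-0.04). Labels do not say what the tag number stands for, and only tags 43 and 46 span 2 dose groups, where dose and sex cannot be told apart. Without the 500 mg/kg mice Cartpt had -0.36, and in males alone Avp had -0.01 and Cartpt -0.33. The cause was not tested. Leaving out each mouse moved the slope of Gal between -0.07 and 0.92, and at 500 mg/kg that of Agrp between -0.26 and 0.6 and that of Gal between -0.04 and 1.06. The sex difference turned sign by limma-voom for Oxt (0.63), Avp (0.2) and Gal (-0.13), and on leaving out each mouse it ran from -0.08 to 0.25 for Pomc, -0.39 to 0.12 for Agrp, -2.37 to 0.14 for Oxt, -0.71 to 0.13 for Cartpt and -0.27 to 0.37 for Gal. At least 10 counts in every library left no precursor to test, Hcrt was not tested without G34, and no filter gave Ghrh a slope of 1.33 (adjusted p = 0.673). Other scalings moved 80 of 80 group means by less than 1 SD. Depth limits Oxt, Hcrt and Pmch, which had at most 3 counts in 11, 11 and 10 of the 18 libraries. No paired analysis was possible because the mouse numbers are unique to each animal.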
